A study of Homo sapiens with 9 samples.

Results

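The genes described here encode the machinery of the DNA replication fork. They were chosen by name: 35 of the 58735 genes in the deposited tables had a symbol in a list of fork components, and all 35 passed the filter on low counts. The list held the 6 helicase subunits MCM2 to MCM7, the sliding clamp PCNA with the 5 clamp loader subunits RFC1 to RFC5, 4 subunits each of polymerase alpha-primase, polymerase delta and polymerase epsilon, 7 genes of flap cutting, RNA primer removal and nick joining, and 4 single-strand binding proteins. No expression value entered the choice, but the study had picked out the replication pathway in these same libraries, so the direction of the members is not independent evidence.

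RNA was sequenced from Huh-7, a human hepatoma line that secretes apoB-containing lipoproteins, and from 2 knockout clones made from it with CRISPR/Cas9. The control group was unedited Huh-7 (genotype WT), the second group Ako-3 cells, which are deficient in APOB, the gene of apolipoprotein B, and the third group Mko-3 cells, which are deficient in MTTP, the gene of the microsomal protein that loads lipid onto apolipoprotein B. Each group had 3 libraries. Cells of all groups were grown in DMEM with 10% fetal bovine serum and, near confluence, kept overnight without serum before RNA was taken. Each knockout was 1 clone and the control was the line itself, so an effect of the lost gene and a property of the clone cannot be told apart. The labels call the libraries of a group biological replicates without naming separate cultures, so the p-values measure the spread between these libraries. The same 3 control libraries served both knockouts.

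At a replication fork, the MCM2-7 ring unwinds the parental duplex, and replication protein A covers the exposed single strands. Polymerase alpha-primase lays down short RNA-DNA primers, the RFC clamp loader places PCNA at their ends, and polymerases epsilon and delta extend the leading and the lagging strand. On the lagging strand, FEN1 and DNA2 cut the displaced primer flaps, RNase H enzymes degrade RNA paired with DNA, and LIG1 seals the remaining nick. Many of these genes are known targets of the E2F transcription factors and are transcribed at the passage from G1 to S phase. In RNA from whole cultures, a larger share of cells in S phase and more of a transcript per cell cannot be told apart.

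Total counts ranged from 14638727 to 20179760 per library. APOB was at 2683, 3508 and 3871 normalised read counts (CPM, counts scaled to a common library size) in the control libraries, 1420, 1258 and 1266 in Ako-3, and 3115, 3408 and 3250 in Mko-3. MTTP was at 635, 603 and 663 CPM in control, 600, 576 and 542 in Ako-3, and 87.3, 90.7 and 82.9 in Mko-3, so each targeted transcript was lowest in its own knockout. These gene-level counts include reads outside the edited sites. The 12 hepatocyte markers were detected in every library, with a summed level of 20320 to 20805 CPM in control, 25133 to 26416 in Ako-3 and 21432 to 22098 in Mko-3. At the adjusted p of edgeR's test, 10 of them rose in Ako-3 cells, and in Mko-3 cells 5 rose (AFP by 0.80, KRT8 by 0.84 and KRT18 by 0.82 on the log2 scale, TTR and HNF4A by less) and 3 fell (ALB by 0.49, APOA1 by 0.43 and AHSG by 0.96). The 4 cholangiocyte or progenitor markers summed to 423 to 463 CPM in control, 393 to 409 in Ako-3 and 513 to 523 in Mko-3, with KRT7 at 0 in all. Among them KRT19 rose by 0.50 in Ako-3 and 2.92 in Mko-3 cells, EPCAM rose by 0.66 and 1.17, and SOX9 fell in both. The 4 endothelial markers summed to 76.1 to 86.6 CPM in control, 105 to 114 in Ako-3 and 55.1 to 60.4 in Mko-3, nearly all of it PECAM1, with KDR at 0 in all. The 4 leukocyte markers summed to at most 0.611 CPM in any library, with CD68 at 0 in all, and the 6 fibroblast markers summed to 7.76 to 14.8 CPM. Mitochondrial genes took 5.52% to 6.17% of the counts in control, 7.06% to 7.40% in Ako-3 and 5.75% to 5.82% in Mko-3 libraries. The part of these differences in the fork gene results was not tested. The second control library stood apart from the first and the third for most fork genes, and counts of genes that changed against control are given with and without it.

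The sequences before 5 of the genes are printed because E2F sites in such sequences are a feature the members could share. The motif letters searched on both strands were TTTCCCGC, TTTCGCGC, TTTGCCGC and TTTGGCGC, and some of them can overlap each other. Each line holds the 250 bases before the RefSeq gene start (GRCh38.p14), written 5′ to 3′ along the gene, with every match in capitals. MCM6 (chr2:135876444-135876693, minus strand) was chosen because it held the most matches, as 2 overlapping pairs. PCNA (chr20:5126623-5126872, minus strand), POLA1 (chrX:24693668-24693917, plus strand) and POLE (chr12:132687343-132687592, minus strand) held 1 match each. RFC1 (chr4:39366363-39366612, minus strand), which changed by -0.02 and -0.20 on the log2 scale in Ako-3 and Mko-3 cells, held none. FEN1, POLD1, RFC2, PRIM1 and RPA1, which rose in both clones, held none either, so the printed genes do not represent all members.
MCM6: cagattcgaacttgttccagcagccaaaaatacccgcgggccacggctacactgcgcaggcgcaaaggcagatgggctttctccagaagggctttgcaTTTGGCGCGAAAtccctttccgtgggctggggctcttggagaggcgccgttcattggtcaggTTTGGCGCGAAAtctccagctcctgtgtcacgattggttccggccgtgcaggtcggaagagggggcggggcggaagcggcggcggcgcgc
PCNA: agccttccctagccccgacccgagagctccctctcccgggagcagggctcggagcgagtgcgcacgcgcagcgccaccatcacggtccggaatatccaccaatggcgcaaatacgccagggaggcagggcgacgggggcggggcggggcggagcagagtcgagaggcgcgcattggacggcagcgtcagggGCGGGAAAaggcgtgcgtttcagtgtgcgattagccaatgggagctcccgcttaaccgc
POLA1: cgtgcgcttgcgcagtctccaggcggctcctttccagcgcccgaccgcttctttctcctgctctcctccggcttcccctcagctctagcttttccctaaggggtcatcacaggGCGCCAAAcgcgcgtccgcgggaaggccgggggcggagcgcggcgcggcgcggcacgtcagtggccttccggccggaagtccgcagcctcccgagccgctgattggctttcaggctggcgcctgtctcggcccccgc
POLE: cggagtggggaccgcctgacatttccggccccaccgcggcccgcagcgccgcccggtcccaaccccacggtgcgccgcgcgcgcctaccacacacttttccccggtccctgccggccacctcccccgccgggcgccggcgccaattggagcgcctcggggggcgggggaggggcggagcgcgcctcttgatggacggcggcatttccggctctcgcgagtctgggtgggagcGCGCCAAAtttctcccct
RFC1: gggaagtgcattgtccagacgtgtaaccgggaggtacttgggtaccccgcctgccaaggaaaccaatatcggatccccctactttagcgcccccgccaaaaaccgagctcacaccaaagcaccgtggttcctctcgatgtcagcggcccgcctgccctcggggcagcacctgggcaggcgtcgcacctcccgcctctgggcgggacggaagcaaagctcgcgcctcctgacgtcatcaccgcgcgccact

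The fork genes were higher in both knockouts. Summed over the 35 genes, they took 1662, 2373 and 1656 CPM in the control libraries, 3659, 3643 and 3863 CPM in the Ako-3 libraries, and 3575, 3628 and 3709 CPM in the Mko-3 libraries. The lowest knockout library was above the highest control library. In Ako-3 cells, 9 of 35 members were called upregulated, meaning 2-fold or more higher and at or under 0.05 for the adjusted p of edgeR's quasi-likelihood test (Benjamini-Hochberg), against 3.52% of the 15787 genes tested. They were MCM2, MCM4, MCM5, MCM7, PCNA, POLD3, POLE, FEN1 and LIG1. At the adjusted p alone, 29 members rose (background 25.5%) and 1, POLD4, fell (background 24.4%). In Mko-3 cells the same rules gave 12 upregulated members (background 3.82% of 15745 genes), namely those 9 with MCM6, POLA1 and DNA2. At the adjusted p alone, 29 rose (background 26.9%) and 3 fell, RFC1, POLD2 and POLD4 (background 27.1%).

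No member was at least 2-fold lower in either knockout by edgeR, by DESeq2 or at an unadjusted p under 0.05. Of all tested genes, 5% were called downregulated in Ako-3 and 7.22% in Mko-3 cells. At such shares few calls would be expected among 35 members, so their absence does not set the fork genes apart. The median log2 fold change of the 35 members was 0.59 in Ako-3 and 0.71 in Mko-3 cells, and that of all tested genes was -0.01 in both. All 3 Ako-3 libraries lay above all 3 control libraries for 30 members (29.7% of tested genes) and below them for POLD4 (28%). All 3 Mko-3 libraries lay above the control libraries for 29 members (30.9% of tested genes) and below them for 3 (29.8%). Without the second control library, 11 members were called upregulated in Ako-3 (background 4.07%) and 15 in Mko-3 cells (background 4.59%), and 31 and 29 rose at the adjusted p alone (backgrounds 26.2% and 28.5%). Then 2 fell in Ako-3, POLD4 and RNASEH2B (background 25.2%), and 2 in Mko-3 cells, RFC1 and POLD4 (background 27.4%). All Ako-3 libraries then lay above both remaining control libraries for 32 members (34.1% of tested genes) and below them for 2 (33%), and all Mko-3 libraries above them for 30 (35.4%) and below them for 3 (34.7%). Without the first control library both counts of upregulated members were 6, and without the third they were 6 and 11. The shares of all tested genes called in these last fits were not computed.

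**Figure D1:**
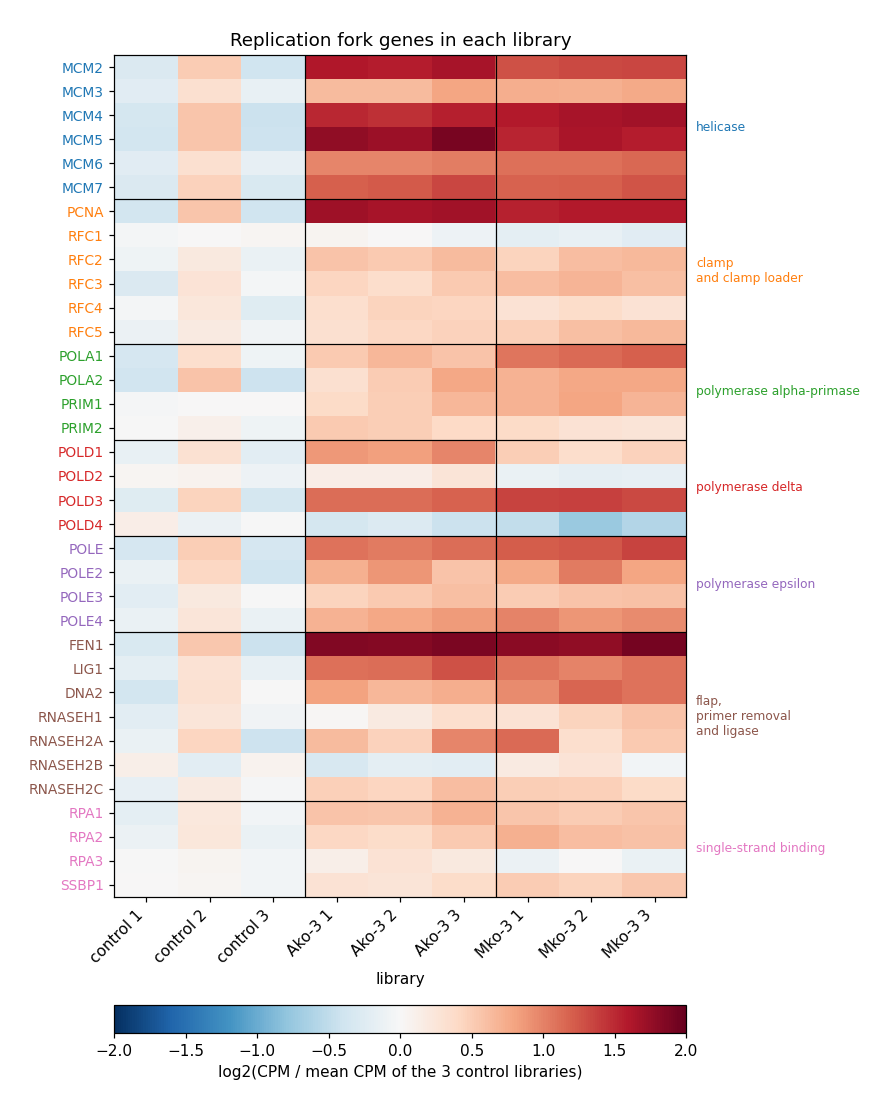
Level of each of the 35 fork genes in the 9 libraries, as log2 of CPM over the mean CPM of the 3 control libraries, with genes grouped by role from top to bottom. The Ako-3 and Mko-3 columns are red for most genes, POLD4 is blue in both, and the second control column is redder than the control columns on either side for most genes.

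The helicase genes rose as a group: all 6 passed the adjusted p in both knockouts, and their median log2 fold change was 1.38 in Ako-3 and 1.25 in Mko-3 cells. MCM5, one of the subunits at the gate through which the ring opens, was at 35.8, 68.5 and 34.9 CPM in control, 158, 152 and 173 CPM in Ako-3, and 133, 145 and 138 CPM in Mko-3 cells. The groups did not overlap, and the second control library was the highest of the controls. Its log2 fold change was 1.80 ± 0.31 (SE) in Ako-3 (adjusted p = 0.00926) and 1.58 ± 0.31 in Mko-3 cells (adjusted p = 0.013), both by edgeR. MCM3 had the smallest rise of the ring, at 167, 242 and 175 CPM in control, 301, 304 and 335 CPM in Ako-3, and 322, 319 and 331 CPM in Mko-3 cells. These values are 0.68 ± 0.13 (SE) and 0.72 ± 0.13 higher on the log2 scale (edgeR adjusted p = 0.00315 and 0.00124). MCM3 therefore rose without reaching 2-fold in either clone.

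MCM2, the partner of MCM5 at that gate, was at 55.5, 95.9 and 51.4 CPM in control, 204, 200 and 211 CPM in Ako-3, and 163, 168 and 171 CPM in Mko-3 cells. The 3 groups were separate, with Ako-3 the highest, and the log2 fold changes against control were 1.60 ± 0.27 (SE) and 1.30 ± 0.27 (edgeR adjusted p = 0.0084 and 0.0162). MCM4, which carries part of the motor activity of the ring, was at 101, 189 and 95.8 CPM in control, 367, 354 and 378 CPM in Ako-3, and 384, 402 and 411 CPM in Mko-3 cells. It had the largest helicase change in Mko-3 cells, 1.63 ± 0.32 (SE, log2), and its adjusted p was 0.0179 in Ako-3 and 0.0132 in Mko-3 cells. MCM7, the most abundant subunit per length, was at 212, 354 and 209 CPM in control, 591, 604 and 651 CPM in Ako-3, and 582, 593 and 620 CPM in Mko-3 cells. Its log2 fold changes were 1.25 ± 0.25 (SE) and 1.20 ± 0.25 (adjusted p = 0.0142 and 0.0153). MCM6 was at 90.7, 132 and 94.7 CPM in control, 207, 208 and 215 CPM in Ako-3, and 228, 227 and 233 CPM in Mko-3 cells. Its log2 fold change was 0.99 ± 0.12 (SE) in Ako-3, just under the 2-fold line, and 1.11 ± 0.12 in Mko-3 cells, just over it (adjusted p = 7.13e-05 and 5.72e-05). The edgeR adjusted p of MCM4 in Ako-3 cells ran from 0.0505 to 0.0607 when either control library 1 or 3 or any 1 Ako-3 library was left out. That of MCM7 was 0.0528 and 0.0524 in the 2 knockouts without control library 1, and that of MCM2 in Mko-3 cells was 0.0582 without control library 1 and 0.0524 without Mko-3 library 3.

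The levels of the ring subunits were also closer to each other in the knockouts. On FPKM (counts scaled to gene length and library size) recomputed with the length of the main annotated transcript, the highest subunit, MCM7, exceeded the lowest, MCM5, by 8.29, 7.23 and 8.37 times in the control libraries, by 5.23, 5.55 and 5.27 times in Ako-3, and by 6.13, 5.74 and 6.29 times in Mko-3 libraries. With the gene lengths of the deposited tables the same ratio was 9.54 ± 0.79 (SD, n = 3) in control, 6.39 ± 0.21 in Ako-3 and 7.22 ± 0.33 in Mko-3 cells. The ranges of the knockouts lay below that of control on both lengths, although an exact permutation test of 3 against 3 libraries cannot give a p under 0.1.

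**Figure D2:**
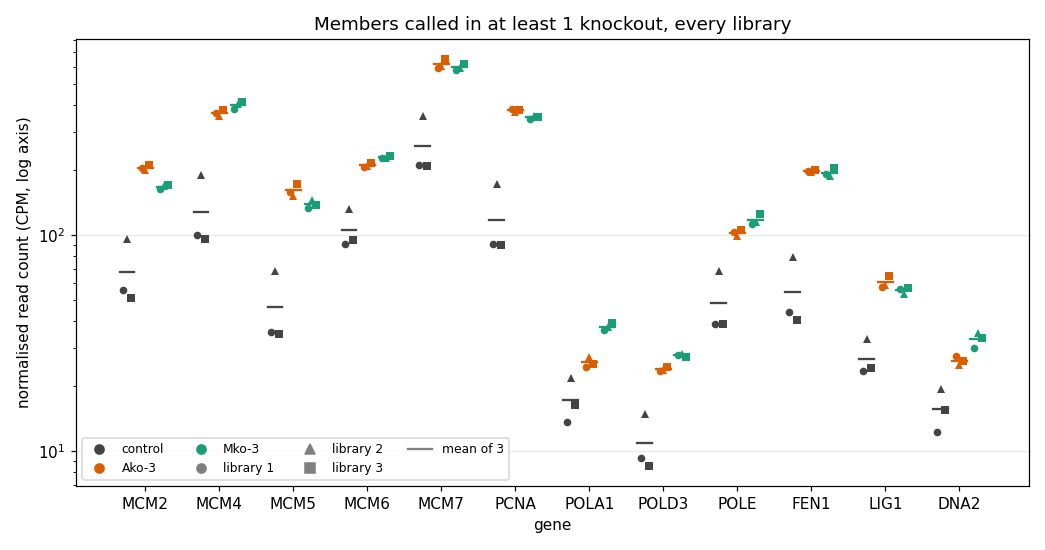
Normalised read counts (CPM, log axis) of the 12 members called upregulated in at least 1 knockout, with the symbol giving the library number and a line at the mean of 3. The knockout libraries lie above all control libraries for each of the 12 genes, and the second control library (triangle) lies above the other control libraries.

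The sliding clamp rose in both clones, and the fold changes of its loader were smaller. PCNA, the ring that tethers polymerases to DNA, was at 91.1, 173 and 90.0 CPM in control, 384, 370 and 378 CPM in Ako-3, and 345, 354 and 353 CPM in Mko-3 cells. The groups did not overlap. PCNA rose by 1.68 ± 0.31 (SE, log2) in Ako-3 and by 1.57 ± 0.31 in Mko-3 cells (edgeR adjusted p = 0.0119 and 0.0138). RFC1, the large subunit of the clamp loader, was at 107, 111 and 113 CPM in control, 115, 111 and 103 CPM in Ako-3, and 96.2, 99.96 and 94.8 CPM in Mko-3 cells. Its Ako-3 and control libraries overlapped (log2 fold change -0.02 ± 0.07 SE, edgeR adjusted p = 0.85), while in Mko-3 cells RFC1 fell by 0.20 ± 0.06 (adjusted p = 0.0116). That second call was lost without Mko-3 library 1 (adjusted p = 0.0622) or without Mko-3 library 3 (adjusted p = 0.0786). The ratio of PCNA counts to RFC1 counts was 0.849, 1.56 and 0.793 in the control libraries, 3.33 to 3.66 in Ako-3 and 3.55 to 3.73 in Mko-3 libraries.

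The 4 small loader subunits, RFC2 to RFC5, rose in both knockouts by less than 2-fold. RFC2 was at 28.1, 33.9 and 27.1 CPM in control, 44.3, 42.8 and 46.1 CPM in Ako-3, and 40.5, 45.7 and 46.7 CPM in Mko-3 cells, a log2 fold change of 0.57 ± 0.09 (SE) in each. RFC3 was at 15.2, 22.6 and 18.2 CPM in control, 25.2, 23.8 and 26.8 CPM in Ako-3, and 28.5, 29.9 and 28.5 CPM in Mko-3 cells, where its log2 fold change of 0.63 ± 0.11 (SE) was the largest of the loader. RFC4 and RFC5 rose by 0.40 and 0.39 on the log2 scale in Ako-3 and by 0.31 and 0.57 in Mko-3 cells. Without control library 3, RFC4 no longer passed in Mko-3 cells (edgeR adjusted p = 0.0618).

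Among the primer-making genes, POLA1 separated the 2 clones. POLA1, the catalytic subunit of polymerase alpha, was at 13.6, 21.8 and 16.3 CPM in control, 24.7, 27.4 and 25.5 CPM in Ako-3, and 36.2, 37.6 and 39.4 CPM in Mko-3 cells. The 3 groups did not overlap. POLA1 rose by 0.59 ± 0.13 (SE, log2) in Ako-3 (edgeR adjusted p = 0.00119) and by 1.13 ± 0.13 in Mko-3 cells (adjusted p = 9.97e-07). PRIM2, the large primase subunit, was at 14.6, 15.8 and 13.8 CPM in control, 21.1, 20.7 and 19.5 CPM in Ako-3, and 19.3, 18.1 and 17.7 CPM in Mko-3 cells. It rose by 0.46 ± 0.10 (SE, log2) and 0.31 ± 0.11, the smallest changes of the 4 in the respective clones, and its call in Mko-3 cells was lost without Mko-3 library 1 (adjusted p = 0.0778) or without control library 3 (adjusted p = 0.0696). PRIM1, the catalytic primase subunit, was one of few members at the same level in all control libraries, 9.40, 9.57 and 9.60 CPM, and rose to 12.5 to 15.2 CPM in Ako-3 and 15.2 to 16.5 CPM in Mko-3 cells. On the same strand, 28.9% of its transcript is shared with exons of NACA or of a gene at 0 to 1 counts per library. NACA had 3655 to 5624 counts per library, and the share of NACA alone was not computed.

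POLA2, the accessory subunit of polymerase alpha, was at 3.60, 7.0 and 3.55 CPM in control, 5.86, 6.67 and 8.05 CPM in Ako-3, and 7.65, 8.05 and 8.09 CPM in Mko-3 cells. The Ako-3 libraries overlapped the second control library, and the log2 fold change of 0.55 ± 0.23 (SE) did not pass (edgeR adjusted p = 0.0534). Without the second control library it was 0.93 ± 0.20 (adjusted p = 0.000203). In Mko-3 cells POLA2 rose by 0.76 ± 0.21 (adjusted p = 0.0055). The ratio of POLA1 counts to PRIM2 counts was 0.934, 1.38 and 1.18 in control, 1.17 to 1.33 in Ako-3 and 1.88 to 2.23 in Mko-3 libraries, so that it overlapped control in Ako-3 and lay above both other groups in Mko-3 cells.

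The 4 subunits of polymerase delta, the lagging-strand polymerase, went in different directions. POLD3, an accessory subunit that binds PCNA, was at 9.29, 14.9 and 8.60 CPM in control, 23.6, 23.7 and 24.7 CPM in Ako-3, and 27.9, 28.2 and 27.4 CPM in Mko-3 cells. It rose by 1.14 ± 0.16 (SE, log2) in Ako-3 (edgeR adjusted p = 2.08e-05) and by 1.35 ± 0.15 in Mko-3 cells (adjusted p = 3.06e-06). POLD4 (chr11:67350777-67356972), the smallest subunit, was at 33.2, 27.9 and 30.1 CPM in control, 23.7, 25.1 and 22.5 CPM in Ako-3, and 21.5, 18.1 and 20.4 CPM in Mko-3 cells. All knockout libraries were below all control libraries, and the second control library was the lowest control. POLD4 fell by 0.37 ± 0.09 (SE, log2) in Ako-3 (adjusted p = 0.00246) and by 0.62 ± 0.10 in Mko-3 cells (adjusted p = 1.94e-05), and it was the only member that passed as lower in both. The ratio of POLD3 counts to POLD4 counts was 0.280, 0.534 and 0.286 in control, 0.945 to 1.10 in Ako-3 and 1.30 to 1.56 in Mko-3 libraries.

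POLD1, the catalytic subunit, was at 62.4, 85.7 and 60.3 CPM in control, 126, 122 and 136 CPM in Ako-3, and 98.2, 88.3 and 96.1 CPM in Mko-3 cells. The 3 groups were separate, with Mko-3 between control and Ako-3. It rose by 0.88 ± 0.11 (SE, log2) and 0.43 ± 0.11 (edgeR adjusted p = 3.97e-05 and 0.00591). POLD2, the scaffold subunit, was at 151, 154 and 137 CPM in control, 162, 162 and 177 CPM in Ako-3, and 135, 130 and 132 CPM in Mko-3 cells. Its log2 fold change was 0.17 ± 0.07 (SE) in Ako-3 (adjusted p = 0.0361) and -0.17 ± 0.06 in Mko-3 cells (adjusted p = 0.0295). These opposite and small changes depended on single libraries and on the method. In Ako-3 cells the adjusted p was 0.144 without control library 3, 0.182 without Ako-3 library 3 and 0.0528 without Ako-3 library 2. In Mko-3 cells it ran from 0.0635 to 0.133 without control library 1 or 2 or any 1 Mko-3 library. With DESeq2 the Mko-3 call was lost (adjusted p = 0.0676), and with upper-quartile scaling the Ako-3 call (edgeR adjusted p = 0.125).

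Polymerase epsilon, the leading-strand enzyme, rose in all 4 subunits and both clones. POLE, its catalytic subunit, was at 38.7, 68.5 and 38.7 CPM in control, 103, 99.6 and 106 CPM in Ako-3, and 112, 115 and 125 CPM in Mko-3 cells. The groups did not overlap, and the log2 fold change was 1.08 ± 0.26 (SE) in Ako-3 (edgeR adjusted p = 0.0224) and 1.27 ± 0.26 in Mko-3 cells (adjusted p = 0.0148). The Ako-3 call was lost when control library 1 or 3 or any 1 Ako-3 library was left out (adjusted p 0.0532 to 0.0731), and the Mko-3 call without control library 1 (0.0514). Without the second control library the values were 1.40 ± 0.07 and 1.60 ± 0.07. POLE3, a histone-fold subunit, had the smallest change, at 37.3, 49.4 and 42.8 CPM in control, 58.9, 62.1 and 65.1 CPM in Ako-3, and 61.4, 64.0 and 65.0 CPM in Mko-3 cells. This was a rise of 0.52 ± 0.09 (SE, log2) and 0.55 ± 0.09. Its histone-fold partner POLE4 rose by 0.77 and 0.94, and POLE2, the second largest subunit, by 0.73 and 0.87 on the log2 scale.

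**Figure D3:**
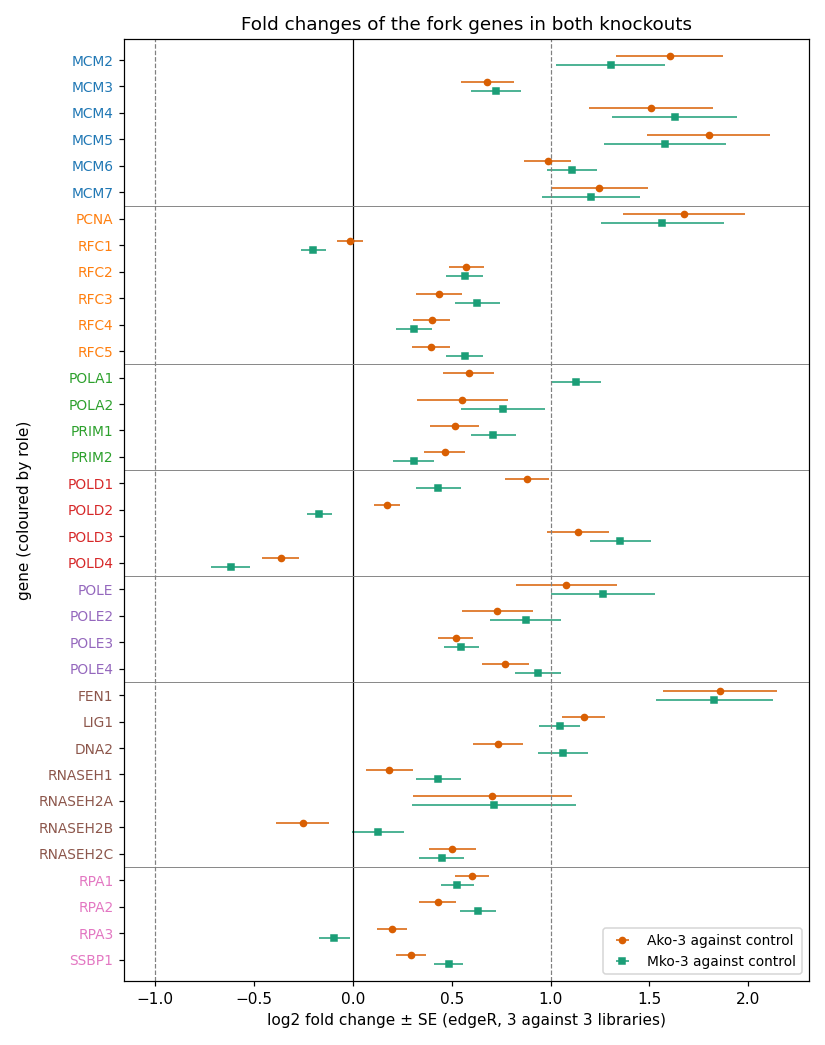
Log2 fold change ± SE of each member in Ako-3 (circles) and Mko-3 cells (squares) against control, from edgeR with 3 libraries against 3, with gene names coloured by role and dashed lines at a 2-fold change. FEN1, MCM5, PCNA, MCM2 and MCM4 lie farthest to the right with wide bars, and POLD4 lies left of 0 in both clones.

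FEN1 (chr11:61792637-61797244), the flap endonuclease that trims displaced primers, had the largest fold change of all members in both clones. It was at 44.1, 79.2 and 40.6 CPM in control, 197, 195 and 201 CPM in Ako-3, and 191, 187 and 205 CPM in Mko-3 cells. Every knockout library was above every control library. FEN1 rose by 1.86 ± 0.29 (SE, log2) in Ako-3, or 3.62-fold, and by 1.83 ± 0.30 in Mko-3 cells, or 3.55-fold (edgeR adjusted p = 0.00666 and 0.00693). A short stretch of its transcript, 2.43%, is shared with FADS2 on the same strand.

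LIG1, the ligase that seals Okazaki fragments, was at 23.4, 32.9 and 24.3 CPM in control, 57.7, 58.5 and 65.0 CPM in Ako-3, and 56.6, 53.5 and 56.8 CPM in Mko-3 cells. Its control libraries were closer together than those of FEN1, and its log2 fold changes of 1.17 ± 0.11 (SE) and 1.05 ± 0.10 had the smallest adjusted p of the members (edgeR, 1.28e-07 and 1.08e-07). DNA2, a nuclease and helicase that cuts long flaps, was at 12.2, 19.3 and 15.6 CPM in control, 27.5, 25 and 26.1 CPM in Ako-3, and 30.1, 35.3 and 33.3 CPM in Mko-3 cells. It rose by 0.74 ± 0.13 (SE, log2) in Ako-3 and 1.06 ± 0.13 in Mko-3 cells (adjusted p = 9.07e-05 and 1.82e-06).

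The RNase H genes had smaller changes than FEN1, LIG1 and DNA2. RNASEH1, a single-subunit enzyme, was at 16.2, 22.4 and 18.0 CPM in control, 19.2, 21.3 and 23.8 CPM in Ako-3, and 23.2, 25.6 and 27.9 CPM in Mko-3 cells. Ako-3 and control overlapped (log2 fold change 0.18 ± 0.12 SE, edgeR adjusted p = 0.211), and in Mko-3 cells RNASEH1 rose by 0.43 ± 0.11 (adjusted p = 0.00299). RNASEH2B, an accessory subunit of RNase H2, was at 11.2, 8.98 and 10.8 CPM in control, 8.31, 9.01 and 8.92 CPM in Ako-3, and 11.7, 12.5 and 9.98 CPM in Mko-3 cells. Neither difference from control passed (log2 fold change -0.25 ± 0.13 SE in Ako-3 and 0.13 ± 0.13 in Mko-3, adjusted p = 0.123 and 0.434). Without the second control library the Ako-3 value was -0.34 ± 0.14 (adjusted p = 0.0405).

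RNASEH2C, the third RNase H2 subunit, rose by 0.50 ± 0.12 (SE, log2) in Ako-3 and 0.45 ± 0.11 in Mko-3 cells (edgeR adjusted p = 0.0013 and 0.0023), with 40.5% of its transcript lying opposite exons of KAT5. RNASEH2A, the catalytic subunit, was counted at only 0.537, 0.792 and 0.444 CPM in control, 0.916, 0.815 and 1.16 CPM in Ako-3, and 1.30, 0.743 and 0.848 CPM in Mko-3 cells. Its log2 fold change of 0.71 in both clones had an SE of 0.40 and 0.42 and did not pass (adjusted p = 0.154 and 0.153). Of its transcript, 94.1% is shared on the same strand with exons of THSD8, itself at 0 to 3 counts per library.

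The single-strand binding genes had small changes, none of them 2-fold. RPA1, which holds the main DNA-binding domains of replication protein A, was at 66.0, 87.7 and 72.5 CPM in control, 112, 110.2 and 123 CPM in Ako-3, and 110.2, 108 and 110.4 CPM in Mko-3 cells. It rose by 0.60 ± 0.09 (SE, log2) and 0.53 ± 0.08 (edgeR adjusted p = 1.68e-05 and 1.78e-05). RPA2, its middle subunit, was at 28.3, 35.9 and 28.0 CPM in control, 40.8, 39.7 and 44.01 CPM in Ako-3, and 50.1, 47.4 and 46.2 CPM in Mko-3 cells, with no overlap between groups. It rose by 0.43 ± 0.09 and 0.63 ± 0.09 on the same scale (adjusted p = 0.000801 and 6.41e-06). RPA3, the smallest subunit, was at 43.7, 45.9 and 42.7 CPM in control, 47.9, 53.8 and 50.7 CPM in Ako-3, and 40.5, 44.1 and 40.1 CPM in Mko-3 cells. It rose by 0.20 ± 0.08 (SE, log2) in Ako-3 (adjusted p = 0.037), and its Mko-3 libraries overlapped control (log2 fold change -0.09 ± 0.08, adjusted p = 0.318). The Ako-3 call of RPA3 was lost without control library 1 or 3 or without Ako-3 library 2 or 3 (adjusted p 0.0697 to 0.172). SSBP1, which serves the mitochondrial genome, rose by 0.30 ± 0.08 (SE, log2) and 0.48 ± 0.07.

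Compared per length, on FPKM recomputed with the main transcript, MCM7 (mean 104), PCNA (91.6) and POLD2 (90.8) were the most abundant members in control cells, and RNASEH2A (0.503), POLA2 (1.32) and POLD3 (2.86) the least. The levels of genes that share exons with another gene on the same strand are uncertain. Besides RNASEH2A, PRIM1 and FEN1, 55.8% of the POLA2 transcript is shared with a readthrough gene at 3 to 10 counts per library. Genes at 0 counts share 38.4% of the POLD4 and 12.4% of the POLD1 transcript. For RNASEH1 the shared part is 19.2%, with a gene that has no entry in the deposited counts. In Ako-3 and Mko-3 cells PCNA (means 292 and 273) and MCM7 (246 and 240) led, and FEN1, at 26.9 FPKM in control, was at 96.9 and 95.6, close to POLD2 at 102 in Ako-3 and above it at 81.4 in Mko-3 cells. The order of MCM7, PCNA and POLD2 in control cells depended on the second control library. There, PCNA and MCM7 were 1.91 and 1.68 times as high as in the others, and POLD2 1.07 times. In the first and the third control library POLD2 was above MCM7 and PCNA. The order of some genes depends on the length used, since the deposited gene length of RNASEH2B is 26291 bases against 1513 for its main transcript, and that of SSBP1 4988 against 677.

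The second control library held more of nearly every fork transcript than the first and the third. It was the highest of the control libraries for 31 of 35 members, against 36.3% of all genes tested. Its log2 CPM exceeded the mean of the other control libraries by a median of 0.44 over the members, with a range of -0.30 (RNASEH2B) to 0.97 (POLA2), and by 0.01 over all genes. The first and the third control library differed from each other by a median of 0.07 over the members and 0.15 over all genes. Over 16169 genes, chi-square per gene between 2 libraries of a group was 8.63, 6.85 and 7.19 for control libraries 1 and 2, 1 and 3, and 2 and 3. It was 3.07 to 3.38 in Ako-3 and 2.37 to 2.75 in Mko-3 cells, so all control pairs differed more than the knockout pairs. By role, the median excess was 0.80 for the helicase, 0.53 for polymerase epsilon, 0.47 for the flap and ligase genes, 0.35 for polymerase alpha-primase, 0.33 for the clamp and its loader, 0.29 for polymerase delta and 0.21 for single-strand binding. This library had the lowest total count of the 9, 14638727.

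Within the second control library the pattern over members ran from MCM4, MCM5, PCNA and POLA2, each at 1.91 to 1.96 times the level of the other control libraries, through LIG1 at 1.38 times and RFC1 and PRIM1 at 1.00 and 1.01 times, to POLD4 and RNASEH2B at 0.883 and 0.814 times. For the 12 upregulated members it lay a median of 46.9% of the way from the other control libraries to Ako-3 on the log2 scale (range 34.8% to 68.9%), and 46.0% of the way to Mko-3 (range 38.2% to 51.6%). The spread it adds set the errors of these genes: without it, the log2 fold change of MCM5 in Ako-3 cells was 2.18 ± 0.08 (SE), that of PCNA 2.05 ± 0.06 and that of FEN1 2.22 ± 0.07. With it, the standard errors of the 3 genes were 0.31, 0.31 and 0.29. The labels give no batch for this library. A list of 20 mitosis genes was a median of 0.26 log2 CPM higher in it, and the part of cell division in its fork gene levels was not tested.

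**Figure D4:**
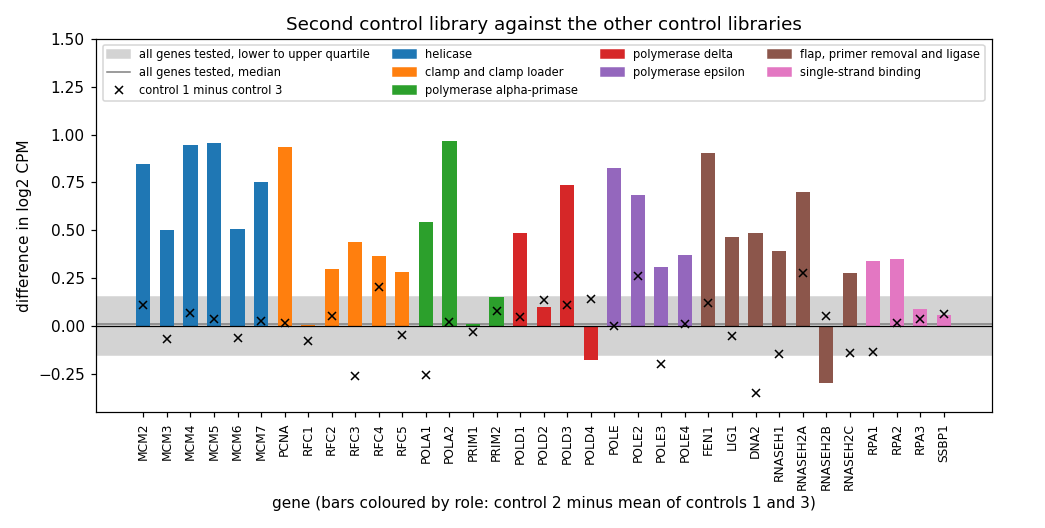
Log2 CPM of the second control library minus the mean of the first and the third for each member (bars, coloured by role), with the first minus the third as crosses and a grey band from the lower to the upper quartile of all tested genes. Most bars rise above the band, up to 0.97 for POLA2, while RNASEH2B and POLD4 point down.

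The 2 knockout clones were then compared with each other, which leaves the control libraries out. No member differed by 2-fold or more by edgeR, by DESeq2 or at an unadjusted p under 0.05. Of the 15528 genes tested, 2.26% were called higher and 3.47% lower in Mko-3 than in Ako-3 cells. With such shares, few calls would be expected among the fork genes, so the absence of calls does not set them apart. At the adjusted p alone, 11 members were higher in Mko-3 cells (background 21.1%) and 8 lower (background 20.6%). DESeq2 gave 7 and 7, and the count of 19 fell to 12 without Ako-3 library 2 and to 9 when all 9 libraries shared 1 fit. The shares of all tested genes that passed in these other fits were not computed, so their counts have no background beside them. The median log2 difference of the members was 0.03, and that of all genes was 0.00.

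Polymerase subunits lay at both ends of that comparison. POLA1 was 0.54 ± 0.08 (SE, log2) higher in Mko-3 than in Ako-3 cells (edgeR adjusted p = 6.77e-09), from the library values given above, and the catalytic subunit of polymerase delta, POLD1, was lower by 0.45 ± 0.05 (adjusted p = 1.31e-11). POLD2 and POLD4 were lower by 0.34 and 0.25, and POLD3 was higher by 0.21. The calls of POLD3 and POLD4 were lost with DESeq2 (adjusted p = 0.0881 and 0.08), that of POLD3 also when any 1 of Ako-3 library 1 or 2 or Mko-3 library 1 or 2 was left out (0.0584 to 0.0728), and that of POLD4 without Ako-3 library 2 (0.0984) or Mko-3 library 2 (0.143). POLE was higher by 0.19 ± 0.05 (adjusted p = 0.00166), and POLE2, POLE3 and POLE4 did not pass. Of the helicase, MCM2 and MCM5 were lower by 0.30 ± 0.04 and 0.22 ± 0.05, MCM4 and MCM6 were each higher by 0.12 ± 0.04, and MCM3 and MCM7 did not pass. Of the flap and primer genes, DNA2 was higher by 0.33 ± 0.08, RNASEH2B by 0.38 ± 0.13 and RNASEH1 by 0.25 ± 0.09. FEN1 and LIG1 did not pass, with log2 differences of -0.03 ± 0.04 and -0.12 ± 0.06. When the control libraries entered the same fit, 10 of these 19 differences did not pass, those of MCM2, MCM4, MCM5, MCM6, PCNA and POLE (adjusted p from 0.361 to 0.79) and those of RFC3 (0.148), POLD3 (0.206), RNASEH1 (0.0802) and RPA2 (0.0579), while those of POLA1, POLD1 and POLD2 did. With DESeq2, those of RFC3, RNASEH1 and RNASEH2B did not pass either (0.128, 0.0912 and 0.0568).

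**Figure D5:**
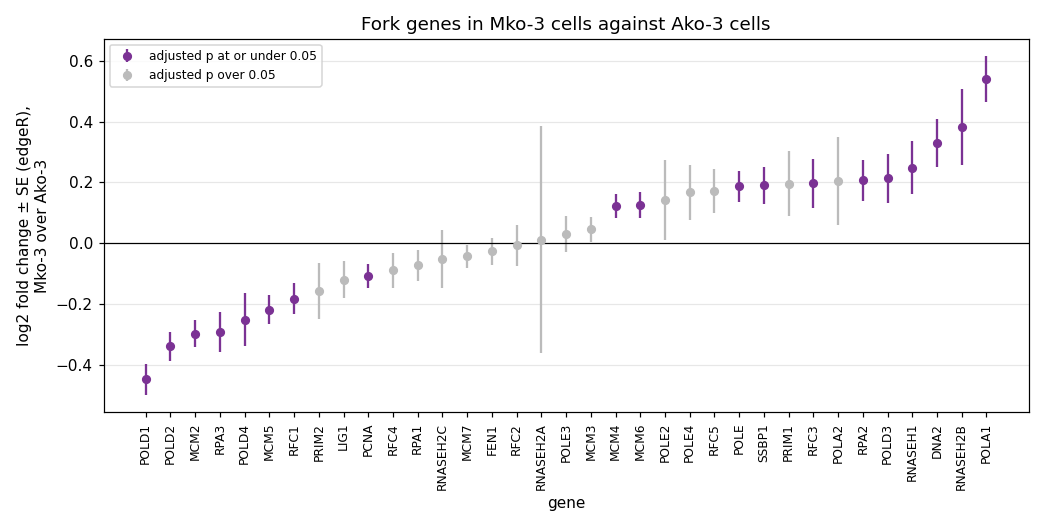
Log2 fold change ± SE of each member in Mko-3 over Ako-3 cells, ordered by size, from edgeR with 3 libraries against 3. Purple points passed the adjusted p, 8 of them below 0, led by POLD1 at -0.45, and 11 above 0, led by POLA1 at 0.54.

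Genes that act with the fork were examined as separate lists, counted at the adjusted p alone, where 25.5% of all tested genes rose and 24.4% fell in Ako-3, and 26.9% rose and 27.1% fell in Mko-3 cells. Of 22 origin licensing and firing genes, 17 rose and 2 fell in Ako-3, and 18 rose and 1 fell in Mko-3 cells. GINS2, a subunit of the GINS complex that joins the helicase, was at 11.5 ± 3.25 CPM (SD, n = 3) in control, 34.6 ± 1.12 in Ako-3 and 35 ± 2.65 in Mko-3 cells. Of 16 fork protection genes and accessory clamp loaders, 12 rose in Ako-3 and 10 in Mko-3 cells. CLSPN, a checkpoint mediator at the fork, went from 5.69 ± 2.08 CPM in control to 16.8 ± 2.73 in Ako-3 and 24.5 ± 1.62 in Mko-3 cells. Of 9 genes that assemble chromatin behind the fork, 8 rose in each clone, with median log2 fold changes of 1.12 and 1.20. ASF1B, a histone chaperone, went from 35.3 ± 8.08 CPM to 78.9 ± 2.54 and 83.4 ± 2.90.

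Of 12 nucleotide supply genes, 10 and 11 rose and 1, RRM2B, the p53-induced subunit of ribonucleotide reductase, fell in each clone, by 0.52 and 0.32 on the log2 scale. Of the 20 tested of 21 G1/S regulators, 13 and 12 rose and 2 and 1 fell. CDC25A, a phosphatase that activates CDK2, went from 18.7 ± 3.46 CPM to 43.4 ± 4.69 in Ako-3 and 50.7 ± 2.08 in Mko-3 cells. Of 20 mitosis genes, 12 rose in Ako-3 and 13 in Mko-3 cells, by at most 0.79 and 0.88 on the log2 scale, and 1, TTK, fell in Mko-3 cells. CENPF, a kinetochore protein, rose by 0.73 ± 0.10 (SE, log2) in Ako-3 and 0.88 ± 0.10 in Mko-3 cells. Of 8 genes of mitochondrial DNA replication, 4 rose in each clone and 1, POLRMT, fell in Mko-3 cells. These lists too were counted at the adjusted p alone. Of all tested genes, 25.5% rose and 24.4% fell in Ako-3, and 26.9% rose and 27.1% fell in Mko-3 cells.

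Without the second control library, 26.2% of all tested genes rose and 25.2% fell at the adjusted p alone in Ako-3 cells. In Mko-3 cells, 28.5% rose and 27.4% fell. In Ako-3 and Mko-3 cells in turn, 18 and 18 of 22 licensing genes rose, and 14 and 13 of 16 fork protection genes. Of 9 chromatin assembly genes 8 and 9 rose, of 12 nucleotide supply genes 10 and 11, and of 20 G1/S regulators 13 and 13. Of 20 mitosis genes 16 and 15 rose, and of 8 mitochondrial replication genes 5 and 6. The licensing genes that then fell were 2 and 0, the G1/S regulators 2 in each, and the other lists had at most 1. That library was the highest control for 36.3% of all genes tested. The share was higher in every list: 19 of 22 licensing, 14 of 16 fork protection, 9 of 9 chromatin assembly, 10 of 12 nucleotide supply, 15 of 20 G1/S, 18 of 20 mitosis and 6 of 8 mitochondrial replication genes.

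E2F letters were found near many fork genes. In the window from 250 bases before to 50 bases after the RefSeq start, 13 of the 29 members in the promoter table (44.8%) held a match, against 3.31% of all 35116 promoters and 6.40% of the 10804 tested genes in the table. Of the 8 upregulated members in the table, 7 held a match, all but FEN1, and of the 21 others 6 did, which were MCM3, RFC3, POLA2, POLE2, POLE4 and SSBP1. In MCM6, printed above, the matches TTTGGCGC and TTTCGCGC overlapped on opposite strands in each of 2 pairs, starting 152 and 90 bases before the gene start. The match of PCNA began 59, that of POLA1 137 and that of POLE 18 bases before the start. MCM4, MCM5, POLD3, DNA2, RPA2 and RPA3 had no entry in the table.

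The CCAAT letters stood in the same window of 15 of the 29 members (51.7%), against 34.6% of all promoters and 42.9% of tested genes, and RFC1 and POLD4 were among them. The letters TTTGAA, the cell cycle homology region element known from genes of late cell cycle phases, stood in 1 member, POLE3 (3.45%), against 15.2% of promoters and 13.9% of tested genes. Such matches describe the letters of a window and were not tested as binding sites.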

How the data were processed

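The members, roles and other gene lists were chosen with earlier results of these data known. The authors had paired-end reads aligned to hg38 with HISAT2 2.0.5 and counted on genes with featureCounts 1.5.0-p3, and deposited raw counts of 58735 genes per library. They also deposited FPKM, which are these counts scaled to the length of each gene and to the DESeq2 size factor of each library over all 9. The annotation release and the strand setting of the counting are not given in the sources used here. The build names in the submitters' processing notes also include GRCh37 and hg19, and the gene positions in the tables overlapped the same genes of GENCODE release 44 on hg38 for all 35 members.

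The libraries were grouped by their labels into 3 groups of 3. Raw counts were tested with edgeR 4.0.16 in R 4.3.3, using TMM factors, filterByExpr with its minimum count set to 10 and robust quasi-likelihood F tests. Every comparison was fitted on its own 6 libraries, with Benjamini-Hochberg adjustment over all genes tested. The standard error is the log2 fold change divided by the square root of F. A member was called when its adjusted p was at most 0.05 and its change 2-fold or more, and counted a second time at the adjusted p alone. CPM were scaled with TMM over all 9 libraries. The fit was tested on simulated data. Values in every library are given for called members and for the smallest and largest change of each role. Alternatives were other scalings, filters, tools (DESeq2 1.42.0, limma 3.58.1 on log2 FPKM with pseudocounts of 1 and 0.1), a replicate block, 1 fit of all libraries, and leaving out each library. The transcript length behind the recomputed FPKM and the motif share over tested genes were chosen after seeing the data. Promoter sequences came from RefSeq (GRCh38.p14).

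Total counts were 14638727 to 20179760 per library. Reads shared between overlapping genes could not be assigned again, and coverage of the edited sites was not used here.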

Additional observations from a re-analysis of the deposited data

Results flagged for a closer look

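For 19 members the change against control differed between the clones, by edgeR's test of Mko-3 against Ako-3 libraries. This is the test of that difference because both changes use the same control libraries. Of the 35 members, 11 were higher in Mko-3 cells and 8 lower, against 21.1% and 20.6% of the 15528 genes tested. Differences of this kind were thus common among all genes. Higher in Mko-3 cells, on the log2 scale, were POLA1 by 0.54, RNASEH2B by 0.38, DNA2 by 0.33, RNASEH1 by 0.25, POLD3 and RPA2 by 0.21 each, RFC3 by 0.20, SSBP1 and POLE by 0.19 each, and MCM6 and MCM4 by 0.12 each. Lower, with log2 fold changes of -0.45, -0.34 and -0.30, were POLD1, POLD2 and MCM2. RPA3, POLD4, MCM5, RFC1 and PCNA were also lower, at -0.29, -0.25, -0.22, -0.18 and -0.11. In 1 fit of all 9 libraries 10 of the 19 no longer passed (MCM2, MCM4, MCM5, MCM6, PCNA, RFC3, POLD3, POLE, RNASEH1 and RPA2), and with DESeq2 RFC3, RNASEH1, RNASEH2B, POLD3 and POLD4 did not. Of the 19, POLD2 was the member whose own 2 changes against control both passed with opposite signs. Its Mko-3 call was lost with DESeq2 (adjusted p = 0.0676), and its Ako-3 call with upper-quartile scaling (edgeR adjusted p = 0.125).

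No group had 4 or more libraries, so single libraries could not be tested as outliers, and the second control library is described by its values alone.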

How the results depend on the processing

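No member changed direction under any alternative at an adjusted p that passed. In Ako-3 cells the count of upregulated members was 9 and ran from 7 to 10 under the other scalings, filters and tools, and from 6 to 11 when 1 library was left out. In Mko-3 cells it was 12 and ran from 9 to 12, and from 6 to 15 with 1 library left out, the lowest without control library 1 and the highest without control library 2. At the adjusted p alone, the members that passed in either direction were 28 to 31 (30 as reported) and 30 to 32 (32 as reported), and 26 to 33 and 28 to 31 with 1 library left out. Between the clones this count was 19, fell to 9 in 1 fit of all 9 libraries, where the spread of the control libraries enters the error, and ran from 12 to 20 with 1 library left out. Except for the fits without control library 2, the shares of all tested genes under these alternatives were not computed. The median log2 fold change of the members ran from 0.51 to 0.78 in Ako-3 and from 0.59 to 0.79 in Mko-3 cells with 1 library left out, and was 0.60 in Mko-3 cells with limma on log2(FPKM + 1), a scale that understates changes of low genes. The excess of the second control library was 0.35 on log2(FPKM + 1) and 0.44 with RLE size factors.

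Same-numbered libraries did not deviate together (correlations from -0.12 to 0.09 over 16169 genes), so the reported fits did not pair them. Weak correlations cannot exclude that same-numbered libraries were prepared together, and the labels do not say. With a replicate block, 9 members were upregulated in Ako-3 (MCM4 lost, adjusted p = 0.0586), 12 in Mko-3 cells, and 28, 32 and 20 passed the adjusted p alone in the 3 comparisons.

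E2F matches fell from 13 to 11 members when only the 250 bases before the start were read. RNASEH2A had only 8 to 23 counts per library, and the cause was not tested.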
